A study of Mus musculus with 9 samples.

Results

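Heat shock proteins are chaperones that bind unfolded or newly made proteins and help them fold, and many of them are made in larger amounts when proteins are damaged. The 10 genes described here encode chaperones of the cytosol and of the mitochondrial matrix: the HSP70 proteins Hspa1a, Hspa1b and Hspa8, the HSP110 protein Hsph1, the HSP90 protein Hsp90aa1, the J-domain protein Dnajb1, the small heat shock protein Hspb1, the co-chaperone Bag3, and the mitochondrial chaperonin pair Hspd1 (HSP60) and Hspe1 (HSP10). They were chosen by name from a table of 30350 genes, and all 10 have a row in it. Of these, 7 reached a mean of at least 1 FPKM (the fragment count of a gene divided by its length and by the depth of the library) over all libraries and entered the test, among 11659 such genes in the table.

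RNA was sequenced from AML12, a line of mouse hepatocytes derived from a mouse carrying a human TGF alpha transgene, in 3 groups of 3 libraries. NC cells were kept in DMEM/F12 medium, FFA cells received free fatty acids in that medium, and FFA_SIN cells received the fatty acids and sinomenine, a plant alkaloid, at 200 µM. By the series' design text the fatty acids came 24 hours ahead of sinomenine and were kept on with it for another 48 hours. The sources used here name neither the fatty acids nor their dose, nor the culture time of the NC and FFA cells. Fatty acid in FFA against NC, and sinomenine in FFA_SIN against FFA, therefore cannot be told apart from time in culture. The length of fatty acid exposure may also differ between FFA and FFA_SIN. All groups are the same cell line, and no label says whether replicates were grown apart. Each p-value therefore reflects the spread among the libraries at hand, which may be technical in origin. The read totals implied by the steps of the values ran from 43201346 to 71391844 over the 9 libraries, with the lowest and the widest range in FFA (43201346 to 67707660). Of 12 hepatocyte markers, 10 had a mean of at least 1 FPKM, with Tat and G6pc below it, and their summed level ran from 3993 to 4061 FPKM in NC, 4271 to 4311 in FFA and 4615 to 4705 in FFA_SIN. Members of that sum moved in opposite directions, with the mean of Alb going from 198 FPKM in NC to 555 in FFA_SIN and that of Krt8 from 1420 to 1046. Of 13 markers of other liver cells, 11 were in the table and only Cd68 and Des had a mean of at least 1 FPKM. Their summed level moved with the groups, from 12.3 to 13.1 FPKM in NC through 7.76 to 9.24 in FFA to 5.91 to 5.98 in FFA_SIN, and its part in the results below was not tested. Des alone carried that difference, with means of 9.73, 5.81 and 2.94 FPKM, while Cd68 was 2.19, 2.21 and 2.50 FPKM. In RNA from whole cultures, fewer cells of a type and less RNA per cell cannot be told apart.

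As background, the heat shock factor HSF1 is held inactive in unstressed cells, and after heat or other damage to proteins it forms trimers that bind heat shock elements, in which the units GAA and TTC alternate. Hspa1a and Hspa1b are the strongly inducible HSP70 genes and are nearly silent in many unstressed cells, whereas Hspa8 is made constantly. J-domain proteins such as Dnajb1 bring substrates to HSP70 and start its ATP cycle, and Hsph1 and Bag3 help HSP70 to exchange its nucleotide. HSP60 forms a chamber in the mitochondrial matrix in which proteins fold, with HSP10 as its lid.

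Heat shock elements were searched in the promoter windows of RefSeq (mouse build GRCm38.p6), which run from 250 bases before to 50 bases after each annotated start. Of the 10 genes, 8 had a window and 11 windows were found for them, with none for Hspa8 and Hsp90aa1. The longer motif searched was 3 units, GAANNTTCNNGAA or TTCNNGAANNTTC, and the shorter was 2 units, GAANNTTC or TTCNNGAA, both read on either strand. Every 3-unit match holds overlapping 2-unit matches. The 3-unit motif was present for 3 of the 8 genes, Hspd1, Hspe1 and Hsph1, against 0.662% of 27025 genes with a window. The 2-unit motif was present for 7 of the 8, all but Dnajb1, against 17.0% of genes. A match describes letters in a window and is neither a bound site nor a cause of any value below.

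The windows of the divergent pair Hspd1 and Hspe1, of Hsph1 and of the 2 inducible HSP70 genes are shown because the results contrast genes that share a promoter or nearly so. Each reads 5′ to 3′ along its gene, and capitals mark the run of 3-unit matches in Hspd1, Hspe1 and Hsph1 and the 2-unit match in Hspa1a and Hspa1b. Hspd1 lies on the minus strand (chr1:55087883-55088182), Hspe1 on the plus strand (chr1:55087898-55088197), and Hsph1 (chr5:149636287-149636586), Hspa1a (chr17:34972107-34972406) and Hspa1b (chr17:34959189-34959488) on the minus strand.
Hspd1: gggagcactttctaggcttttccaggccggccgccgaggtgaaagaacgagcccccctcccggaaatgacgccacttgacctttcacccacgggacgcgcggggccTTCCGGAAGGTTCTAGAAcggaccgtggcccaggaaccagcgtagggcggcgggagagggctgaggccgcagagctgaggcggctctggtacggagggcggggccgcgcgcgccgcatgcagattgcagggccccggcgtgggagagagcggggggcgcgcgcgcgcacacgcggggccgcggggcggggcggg
Hspe1: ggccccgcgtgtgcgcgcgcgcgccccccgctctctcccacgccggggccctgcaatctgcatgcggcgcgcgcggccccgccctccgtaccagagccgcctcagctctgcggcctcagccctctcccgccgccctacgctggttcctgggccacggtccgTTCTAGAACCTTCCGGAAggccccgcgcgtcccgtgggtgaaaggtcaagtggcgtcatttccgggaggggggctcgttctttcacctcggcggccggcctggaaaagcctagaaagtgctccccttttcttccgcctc
Hsph1: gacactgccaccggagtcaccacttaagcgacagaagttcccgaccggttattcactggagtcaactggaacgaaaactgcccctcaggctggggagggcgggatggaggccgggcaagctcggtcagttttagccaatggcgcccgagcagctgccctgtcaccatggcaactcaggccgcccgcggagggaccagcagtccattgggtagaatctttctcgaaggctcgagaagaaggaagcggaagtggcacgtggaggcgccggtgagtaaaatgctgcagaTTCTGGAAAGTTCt
Hspa1a: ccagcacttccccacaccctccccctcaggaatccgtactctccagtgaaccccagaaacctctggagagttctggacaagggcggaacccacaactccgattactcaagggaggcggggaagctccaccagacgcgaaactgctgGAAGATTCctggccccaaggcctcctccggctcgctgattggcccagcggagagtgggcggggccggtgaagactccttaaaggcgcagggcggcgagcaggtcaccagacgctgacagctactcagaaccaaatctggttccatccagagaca
Hspa1b: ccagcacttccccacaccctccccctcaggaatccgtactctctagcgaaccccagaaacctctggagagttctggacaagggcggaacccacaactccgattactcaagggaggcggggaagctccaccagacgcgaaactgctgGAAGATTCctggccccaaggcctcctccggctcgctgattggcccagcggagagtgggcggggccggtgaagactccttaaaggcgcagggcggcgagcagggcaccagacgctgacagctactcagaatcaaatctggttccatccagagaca

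The windows of Hspd1 and Hspe1 overlap by 285 bases, and the 18 bases in capitals are the same stretch read from opposite strands, made of 2 overlapping 3-unit matches. A second annotated start of Hspd1 had a window without either motif. The match in Hsph1 lies after the annotated start, with its first base at position 37 from the start shown and at position 16 from a second annotated start (chr5:149636266-149636565). The windows of Hspa1a and Hspa1b differ at 4 of 300 bases, and both hold their single 2-unit match at the same place, 104 bases before the start. Hspb1 had 2 matches of 2 units and Bag3 had 1.

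The genes fell into 2 sets by level, 7 expressed and 3 close to no reads. Hspa8, the constitutive cytosolic HSP70, was highest with a mean of 396 FPKM over the 9 libraries. The cytosolic HSP90 gene Hsp90aa1 followed at 193 FPKM and the HSP60 gene Hspd1 at 167 FPKM. The ranges of these 3 over libraries did not meet (377 to 410, 181 to 207 and 156 to 182 FPKM), except that the top of Hspd1, NC replicate 2, lay just above the bottom of Hsp90aa1, FFA replicate 3. Hspe1 came next at 64.1 FPKM, then Bag3, a co-chaperone that links HSP70 to autophagy, at 27.2 FPKM, Dnajb1 at 21.4 FPKM and Hsph1 at 13.0 FPKM. Neighbours in that lower order did not meet over the 9 libraries, since the lowest Bag3 value was 23.6 FPKM and the highest Dnajb1 value 21.9 FPKM. Expressed as a coefficient of variation over all 9 libraries, the spread of each of the 7 was small, from 2.45% for Dnajb1 and 2.94% for Hspe1 to 6.97% for Bag3.

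**Figure D1:**
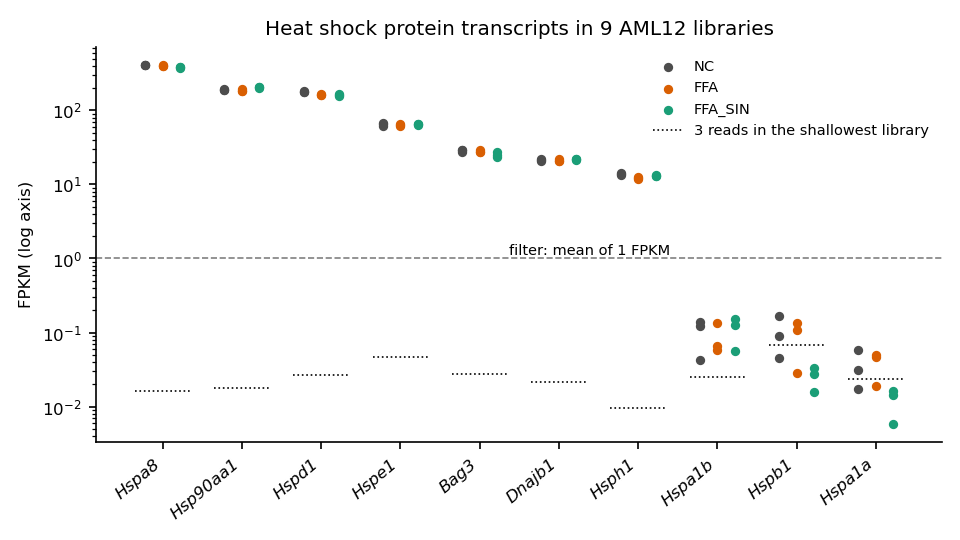
FPKM of the 10 heat shock protein genes on a log axis, 1 point per library and a marker for each group, ordered by mean level; each short dotted line is the FPKM that 3 reads would give in the shallowest library. The 7 expressed genes have means from 13.0 to 396 FPKM, and Hspa1b, Hspb1 and Hspa1a lie below 0.2 FPKM in every library, under the dashed line at 1 FPKM.

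The inducible HSP70 genes were close to silent in all 9 libraries. Hspa1a had 6, 3 and 11 reads in NC, 6, 3 and 10 in FFA and 3, 1 and 3 in FFA_SIN. Hspa1b had 22, 7 and 25 reads in NC, 8, 20 and 11 in FFA and 22, 9 and 30 in FFA_SIN. Hspb1, which encodes the small heat shock protein HSP25 of the mouse, had 3, 10 and 6 reads in NC, 6, 6 and 2 in FFA and 1, 2 and 2 in FFA_SIN. Of its 75-base windows 46.4% also occur in the pseudogene Hsp25-ps1, so its level is uncertain. In terms of level, the highest library reached 0.0575 FPKM for Hspa1a, 0.150 FPKM for Hspa1b and 0.165 FPKM for Hspb1. The groups overlapped for Hspa1b, with means of 0.101, 0.0857 and 0.110 FPKM in NC, FFA and FFA_SIN. The FFA_SIN libraries of Hspa1a lay below all others, and those of Hspb1 lay below all NC libraries, but on totals of 7 and 5 reads. Fitted with limma without the filter on low values, none of these 3 genes passed an adjusted p of 0.05 in any comparison, and the smallest was 0.206 for Hspb1 in FFA_SIN against NC. That fit adds 1 FPKM to each value before taking the log, which flattens differences at such low levels. It therefore cannot decide whether the groups differ in these 3 genes.

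Hspa1a and Hspa1b also cannot be separated well by sequence. Of the 75-base windows along the exons of Hspa1a in the GENCODE vM21 annotation, 52.7% also occur in Hspa1b, and the sources used here do not say how reads that match several genes were counted. The sum of both genes avoids that split only if each shared read was counted once, so its level is uncertain too. As deposited, the sum was 0.136 ± 0.0698 FPKM in NC, 0.124 ± 0.0242 in FFA and 0.123 ± 0.0542 in FFA_SIN (SD, n = 3). The groups overlapped in each comparison, with an exact two-sided permutation p of 0.9 for FFA against NC, 1.0 for FFA_SIN against FFA and 0.8 for FFA_SIN against NC, where 3 libraries against 3 cannot give less than 0.1.

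Among the expressed genes, Hspa8 shares the most sequence with genes that are themselves high in the table. Its processed pseudogene Gm15459, 79.9% of whose windows also occur in Hspa8, is listed at 614 to 693 FPKM, above Hspa8 itself. Genes that share at least 5% of a member's windows are called its copies here, and they need not be near-identical to it. Together 4 copies hold 42.0% to 43.8% of the reads summed over Hspa8 and its copies, so the deposited level of Hspa8 is uncertain. With these copies added, an alternative chosen after the data were seen, Hspa8 was 720 ± 3.89 FPKM in NC, 701 ± 0.552 in FFA and 661 ± 4.73 in FFA_SIN (SD, n = 3). This sum too avoids the split of shared reads only if each was counted once, so values with copies added are uncertain as well. For Hspe1 a gene annotated as AC117239.2, in which 11.9% of the windows of Hspe1 occur, held 19.6% to 23.3% of the summed reads. The copies of Hspd1 and Hsp90aa1 held at most 2.17% and 1.06% of them. No 75-base window of Hsph1, Bag3 or Dnajb1 occurs in another gene. Hspd1 and Hspe1 overlap on opposite strands, and the sources used here do not say whether reads were counted by strand.

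With fatty acids, 2 of the 7 expressed genes changed and both fell. They were Hsph1, which exchanges the nucleotide of HSP70, and the mitochondrial HSP60 gene Hspd1. An adjusted p below 0.05 from limma on log2(FPKM + 1), over all genes tested, counts as changed here. Of all 11659 genes, 37.5% changed in this comparison and 18.4% fell. The median absolute log2 fold change was 0.03 over the 7 genes and 0.09 over all genes tested.

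Hsph1 was 13.5, 14.2 and 13.9 FPKM in the NC libraries and 11.8, 12.5 and 12.3 FPKM in the FFA libraries. Every FFA library lay below every NC library, and the mean fell by 11.7%. The log2 fold change was -0.17 ± 0.03 (SE), with an adjusted p of 0.00152 by limma. Hspd1 was 177, 182 and 175 FPKM in NC and 166, 160 and 163 FPKM in FFA, again with no overlap, and the mean fell by 8.38%. Its log2 fold change was -0.13 ± 0.03, with an adjusted p of 0.00515. Those 2 genes were the ones whose NC and FFA libraries did not overlap, 2 of 7, where 48.9% of all genes tested did not overlap.

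Hspe1, on the other strand of the same promoter as Hspd1, did not pass the threshold. Its libraries were 66.7, 60.7 and 64.7 FPKM in NC and 64.9, 62.3 and 64.3 FPKM in FFA, fully overlapping. The log2 fold change was -0.00, with a 95% interval from -0.08 to 0.08 that includes falls of up to 0.08. The 4 remaining expressed genes did not pass either. The interval was -0.06 to 0.02 for Hspa8 (406 ± 3.31 FPKM in NC and 401 ± 5.94 in FFA), -0.09 to 0.03 for Hsp90aa1, -0.09 to 0.04 for Dnajb1 and -0.17 to 0.07 for Bag3. As deposited, none of these 4 separated the NC from the FFA libraries. With its copies added, the log2 fold change of Hspa8 was -0.04, with a 95% interval from -0.07 to -0.00 (limma adjusted p = 0.0868). Its pseudogene Gm15459 fell from 690 ± 2.96 to 662 ± 13.9 FPKM (SD, n = 3, limma adjusted p = 0.0372).

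When sinomenine was added to the fatty acids, 3 of the 7 genes changed, 2 rising and 1 falling. The HSP90 gene Hsp90aa1 and Hsph1 rose, and the constitutive HSP70 gene Hspa8 fell. Over all genes tested 31.2% changed, 13.9% up and 17.3% down. The median absolute log2 fold change was 0.07 over the 7 genes, against 0.08 over all genes tested.

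Hsp90aa1 was 192, 182 and 181 FPKM in FFA and 205, 207 and 200 FPKM in FFA_SIN. All FFA_SIN libraries lay above all FFA libraries, and the mean was 10.2% higher. The log2 fold change was 0.14 ± 0.03 (SE) and the limma adjusted p 0.0039. Hspa8 was 395, 400 and 407 FPKM in FFA and 382, 377 and 382 FPKM in FFA_SIN. The groups did not overlap and the mean fell by 5.01%, a log2 fold change of -0.07 ± 0.02 (limma adjusted p = 0.0118). That call was lost without FFA replicate 3, at an adjusted p of 0.0502, and with its copies added the log2 fold change was -0.08 (limma adjusted p = 0.00304).

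Hsph1 was the gene that moved back towards NC. From 12.2 ± 0.346 FPKM in FFA it reached 12.8, 13.2 and 13.0 FPKM in the FFA_SIN libraries, above all FFA libraries and below all NC libraries. The log2 fold change was 0.09 ± 0.03, with a limma adjusted p of 0.0460 that lies close to the threshold. It missed the threshold in 6 of 9 leave-one-out fits, those without NC replicate 3, FFA replicate 1, FFA replicate 3 or any of the FFA_SIN libraries, where the adjusted p went up to 0.141 (without FFA replicate 1). FFA against NC and FFA_SIN against FFA share the FFA libraries, so a fall in one and a rise in the other are not independent.

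Bag3 was 27.2, 28.7 and 27.0 FPKM in FFA and 23.6, 24.9 and 27.6 FPKM in FFA_SIN. FFA_SIN replicate 3 lay within the FFA range while the other 2 lay below it. The log2 fold change was -0.12 with a 95% interval from -0.24 to -0.00 and an adjusted p of 0.120 by limma, and without that library it was -0.18 with an adjusted p of 0.0139. Dnajb1 (20.8, 20.5 and 21.8 FPKM in FFA, 21.4, 21.8 and 21.9 in FFA_SIN) overlapped, with an interval from -0.02 to 0.11. The chaperonin pair did not pass the threshold. For Hspd1 the interval ran from -0.07 to 0.05 around FFA_SIN values of 163, 165 and 156 FPKM, and for Hspe1 from -0.07 to 0.09 around 62.6, 65.7 and 64.8 FPKM. The 3 changed genes were also those whose libraries did not overlap, 3 of 7 against 45.5% of all genes tested.

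**Figure D2:**
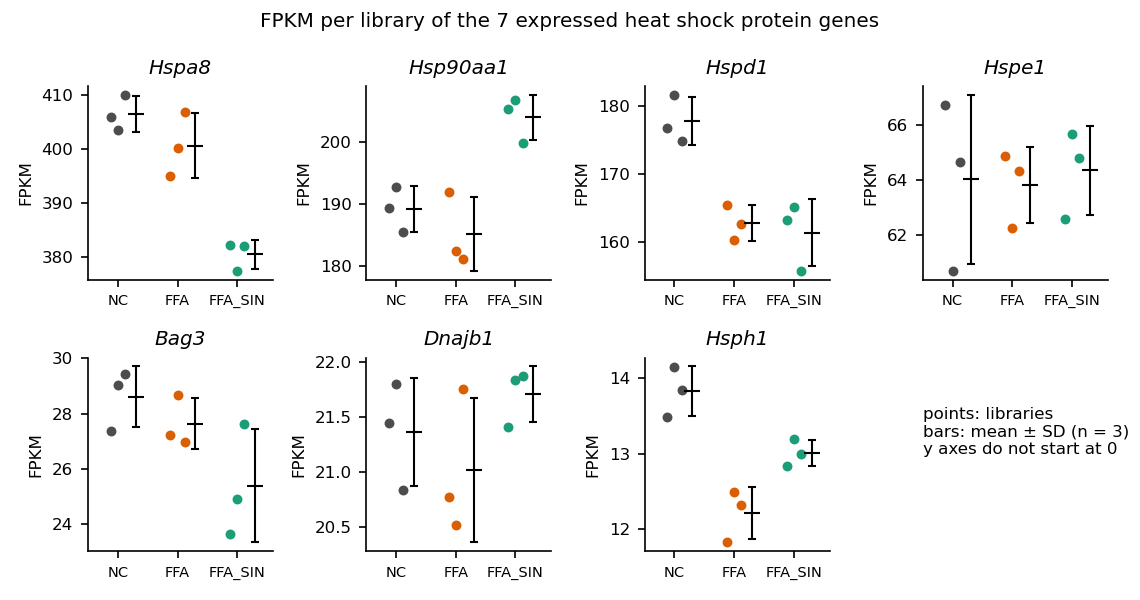
FPKM of each of the 7 expressed genes by group, 1 point per library with a bar for the mean and its SD (n = 3); each panel has its own y axis, which does not start at 0. Hspd1 is lower in the FFA and FFA_SIN libraries than in NC, Hsp90aa1 is higher in FFA_SIN than in both other groups and Hspa8 lower, while the groups overlap for Hspe1 and Dnajb1.

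Between cells with fatty acids and sinomenine and cells in plain medium, 5 of the 7 genes changed, 1 up and 4 down. Hsp90aa1 rose by a log2 fold change of 0.11 ± 0.03 (SE), from 189 ± 3.67 to 204 ± 3.62 FPKM (SD, n = 3, limma adjusted p = 0.00836). Hspd1, Hspa8, Bag3 and Hsph1 fell. Over all genes tested 51.3% changed, 24.7% up and 26.5% down. The median absolute log2 fold change was 0.09 over the 7 genes and 0.13 over all genes tested.

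Hspd1 fell from 178 ± 3.47 to 161 ± 4.95 FPKM (SD, n = 3), so the mean fell by 9.17%, with a log2 fold change of -0.14 ± 0.03 (limma adjusted p = 0.00192). Hspa8 fell from 406 ± 3.31 to 381 ± 2.66 FPKM (SD, n = 3), a log2 fold change of -0.09 ± 0.02 (limma adjusted p = 0.00175). With its copies added, the log2 fold change of Hspa8 was -0.12 (limma adjusted p = 0.000160). For both genes all FFA_SIN libraries lay below all NC libraries. As in both other comparisons, the largest differences among the 7 genes were small, and the largest absolute log2 fold change here was 0.17, for Bag3, below the median of 0.22 over all genes that changed.

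Bag3 and Hsph1 were the less certain of the 4 falls. Bag3 was 27.4, 29.0 and 29.4 FPKM in NC, and FFA_SIN replicate 3, at 27.6 FPKM, lay above the lowest of them, so the groups overlapped. Its log2 fold change was -0.17 ± 0.05 with a limma adjusted p of 0.0248, which missed the threshold without NC replicate 2, NC replicate 3, FFA_SIN replicate 1 or FFA_SIN replicate 2, at up to 0.0844. For Hsph1 the log2 fold change was -0.08 ± 0.03 with a limma adjusted p of 0.0349, and the libraries did not overlap. It missed the threshold in 5 of 9 leave-one-out fits, those without NC replicate 2, NC replicate 3 or any of the FFA_SIN libraries, at up to 0.111. Hspe1 (64.0 ± 3.08 FPKM in NC, 64.3 ± 1.61 in FFA_SIN) and Dnajb1 (21.4 ± 0.490 and 21.7 ± 0.255) did not pass, with intervals of the log2 fold change from -0.07 to 0.09 and from -0.04 to 0.08. The libraries of 4 of the 7 genes did not overlap in this comparison, where 60.1% of all genes tested did not.

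**Figure D3:**
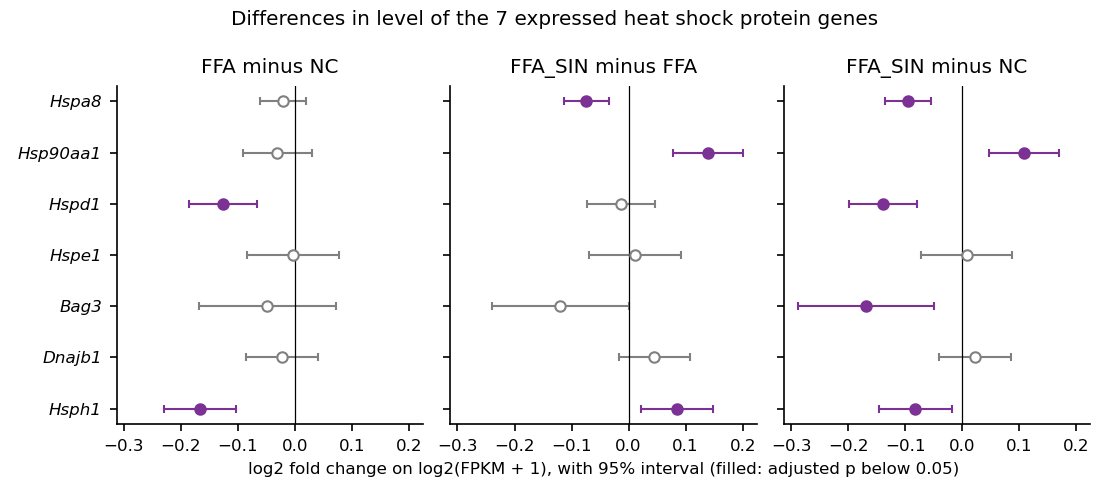
Log2 fold change on log2(FPKM + 1) of the 7 expressed genes in the 3 comparisons, with 95% intervals from limma (3 libraries per group); filled points passed an adjusted p of 0.05. Hspd1 and Hsph1 lie below 0 in FFA against NC, and Hsp90aa1 lies above 0 in both comparisons of FFA_SIN; no point lies farther than 0.17 from 0.

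Ratios within a library do not depend on its scaling to depth, and some of them differed between groups. For scale, 48.9%, 45.5% and 60.1% of single genes tested did not overlap in FFA against NC, FFA_SIN against FFA and FFA_SIN against NC. Ratios with Hspa8 or Hspe1 were computed without the copies that hold part of their summed reads. The ratio of Hspd1 to Hspe1 was 2.65, 2.99 and 2.71 in NC, 2.55, 2.58 and 2.53 in FFA and 2.61, 2.52 and 2.40 in FFA_SIN. All NC libraries were above the others, while FFA and FFA_SIN overlapped. The exact two-sided permutation p was 0.1 for FFA against NC and for FFA_SIN against NC, the smallest that 3 against 3 allows, and 0.6 for FFA_SIN against FFA.

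The ratio of Hspa8 to Hsp90aa1 was 2.15 ± 0.0593 in NC, 2.17 ± 0.0975 in FFA and 1.87 ± 0.0428 in FFA_SIN (SD, n = 3). All FFA_SIN libraries were below all others (exact permutation p = 0.1 against each group), and NC and FFA overlapped (exact permutation p = 0.9). Hsp90ab1, the constitutive HSP90 gene, was more abundant than Hsp90aa1, at 1032 ± 14.2, 1013 ± 10.5 and 1015 ± 6.69 FPKM in NC, FFA and FFA_SIN, and it did not pass the threshold in any comparison. The ratio of Hsp90aa1 to Hsp90ab1 was 0.183 ± 0.00476 in NC, 0.183 ± 0.00747 in FFA and 0.201 ± 0.00482 in FFA_SIN (SD, n = 3). The FFA_SIN libraries again stood apart, with an exact permutation p of 0.1 against each other group.

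The ratio of Hspa8 to its exchange partner Hsph1 was 29.4 ± 0.804 in NC, 32.8 ± 0.708 in FFA and 29.3 ± 0.583 in FFA_SIN (SD, n = 3). Here the FFA libraries were above all others (exact permutation p = 0.1 against each group), and NC and FFA_SIN overlapped (exact permutation p = 0.8). Hspa8 over the J-domain gene Dnajb1 was 19.0 ± 0.595, 19.1 ± 0.408 and 17.5 ± 0.286, lowest in the FFA_SIN libraries without overlap (exact permutation p = 0.1 against each group). In total the 10 genes summed to 901 ± 2.17 FPKM in NC, 873 ± 5.56 in FFA and 871 ± 4.99 in FFA_SIN, and Hspa8 made up 45.1%, 45.9% and 43.7% of that sum.

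**Figure D4:**
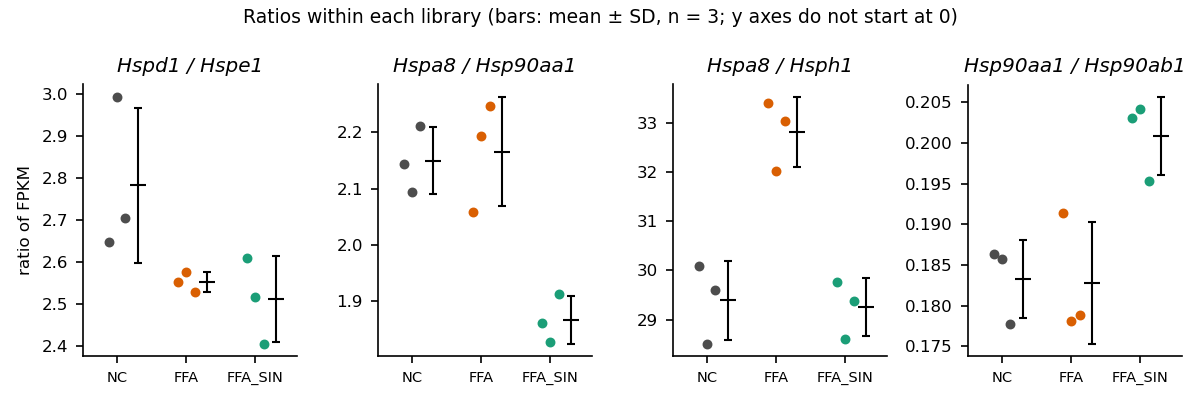
Ratios of FPKM within each library by group, 1 point per library with the mean and SD (n = 3); y axes do not start at 0. Hspd1 over Hspe1 is highest in NC, Hspa8 over Hsp90aa1 is lowest in FFA_SIN, and Hspa8 over Hsph1 is highest in FFA.

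The 99 other chaperone genes looked at, taken from lists by role, held 90 that were tested. In FFA against NC 26 rose and 14 fell, in FFA_SIN against FFA 12 rose and 15 fell, and in FFA_SIN against NC 25 rose and 24 fell. These are 44.4%, 30.0% and 54.4% of the tested genes, near the 37.5%, 31.2% and 51.3% of all genes. Of 18 other known targets of HSF1, 4 rose and 4 fell with fatty acids, and 4 rose and 1 fell when sinomenine was added. In FFA_SIN against NC 6 rose and 4 fell. Over all genes tested, 19.1%, 13.9% and 24.7% rose and 18.4%, 17.3% and 26.5% fell in these comparisons. The median log2 fold changes of the 18 were -0.00, 0.01 and 0.03, beside 0.00, -0.01 and -0.01 over all genes tested.

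Among 5 heat shock factors and their regulators, Hsf1 fell from 11.1 ± 0.330 FPKM in NC to 9.80 ± 0.152 in FFA (SD, n = 3, limma adjusted p = 0.00212). It was 10.1 ± 0.263 FPKM in FFA_SIN, below NC (limma adjusted p = 0.00569) and not past the threshold against FFA. Hsf2, another heat shock factor, rose in all 3 comparisons, from 4.07 ± 0.0686 through 5.09 ± 0.0932 to 5.52 ± 0.0970 FPKM. Hsf4, a further heat shock factor, had the largest log2 fold change of the 5 with fatty acids, 0.53 ± 0.07 (SE), and at 2.62 ± 0.194 FPKM in FFA was 74.4% above NC (SD, n = 3, limma adjusted p = 0.000268), and was 2.38 ± 0.239 FPKM in FFA_SIN, above NC. Ier5, which promotes the activity of HSF1, fell from 47.2 to 39.0 FPKM with fatty acids and was 36.4 FPKM in FFA_SIN, below NC and not past the threshold against FFA.

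Other chaperones of the mitochondrion are listed beside Hspd1 and Hspe1. Of 18 other mitochondrial chaperones and proteases, 11 rose and 1, the J-domain gene Dnaja3, fell in FFA against NC, with a median log2 fold change of 0.11 against 0.00 over all genes tested, of which 19.1% rose and 18.4% fell. In FFA_SIN against FFA 4 rose and 4 fell, where 13.9% of all genes tested rose and 17.3% fell. In FFA_SIN against NC 9 rose and 3 fell, where 24.7% of all genes tested rose and 26.5% fell. Grpel2, which exchanges the nucleotide of mitochondrial HSP70, went from 9.63 ± 0.313 FPKM in NC to 13.8 ± 0.364 in FFA and 16.2 ± 0.265 in FFA_SIN (SD, n = 3), rising in all 3 comparisons. Lonp1, the matrix protease, rose from 33.2 to 38.3 and 45.0 FPKM, and Timm44, which anchors mitochondrial HSP70 at the import channel, from 15.1 to 16.8 and 19.4 FPKM. Trap1, the mitochondrial HSP90, rose from 55.4 to 58.5 FPKM with fatty acids and fell to 50.5 FPKM with sinomenine.

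Around cytosolic HSP90, 2 of 12 genes fell and none rose with fatty acids, 1 fell and none rose when sinomenine was added, and 4 fell and none rose in FFA_SIN against NC. Of all genes tested, 18.4%, 17.3% and 26.5% fell in these comparisons and 19.1%, 13.9% and 24.7% rose. The HSP90 co-chaperone Fkbp5 fell from 23.9 ± 0.186 to 18.8 ± 0.160 FPKM against FFA (SD, n = 3, limma adjusted p = 2.1e-06). Stip1, which joins HSP70 to HSP90, fell from 242 ± 1.72 FPKM in NC to 224 ± 0.874 in FFA, and at 217 ± 5.60 in FFA_SIN it was below NC and not past the threshold against FFA. Among 11 genes of HSP70 nucleotide exchange and quality control, Bag1 fell in all 3 comparisons, from 140 through 134 to 117 FPKM, and St13, which stabilises HSP70 with bound substrate, rose in all 3, from 43.0 through 48.9 to 52.5 FPKM.

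Hspa4l, a relative of Hsph1 in the HSP110 family, rose in all 3 comparisons, from 20.1 ± 0.614 FPKM in NC through 22.5 ± 0.130 in FFA to 26.6 ± 0.633 in FFA_SIN (SD, n = 3). Of the 6 tested genes of its list, which holds HSP70 and HSP110 genes but not the mitochondrial Hspa9, 2 rose with fatty acids, 1 rose and 1 fell when sinomenine was added, and 2 rose and 1 fell in FFA_SIN against NC. Among 15 cytosolic J-domain genes beside Dnajb1, 2 rose and 2 fell, then 2 rose and 3 fell, then 2 rose and 5 fell in the same order. The shares over all genes tested, beside both lists, were 19.1%, 13.9% and 24.7% rising and 18.4%, 17.3% and 26.5% falling. Dnajc5 went from 48.4 and 47.9 FPKM in NC and FFA to 61.7 FPKM in FFA_SIN, and Dnajb4 fell from 3.36 to 2.72 FPKM against FFA. In the list of Hspa4l, Hspa12a rose from 3.17 FPKM in NC to 4.33 in FFA (limma adjusted p = 0.000153). Hspa13 fell from 8.98 FPKM in FFA to 8.04 in FFA_SIN (limma adjusted p = 0.00241).

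Of 9 other genes listed as small heat shock proteins, 4 were tested. The other 5 (Hspb2, Hspb3, Hspb7, Hspb9 and Cryaa) were, like Hspb1, below the filter, none above 0.366 FPKM in a library. Cryab, which encodes alpha-B crystallin, fell with fatty acids from 17.8 to 16.6 FPKM and rose to 21.5 FPKM with sinomenine. Hspb8, the partner of Bag3, rose from 22.1 ± 0.819 FPKM in NC to 24.8 ± 0.677 in FFA and was 24.1 ± 0.211 in FFA_SIN (SD, n = 3). Hspb6 rose as well in FFA against NC. So did Hspb11, which was placed in this list, and whether it acts as a chaperone was not tested. Among 14 genes of the cytosolic chaperonin TRiC and prefoldin, 3 rose and 3 fell with fatty acids, none rose and 4 fell when sinomenine was added, and 2 rose and 5 fell in FFA_SIN against NC. Over all genes tested, 19.1%, 13.9% and 24.7% rose and 18.4%, 17.3% and 26.5% fell in these comparisons. Cct3, Cct6a and Pfdn2 fell in all 3. Tcp1 and Cct4 rose in FFA against NC and in FFA_SIN against NC, and Vbp1 rose in FFA against NC.

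**Figure D5:**
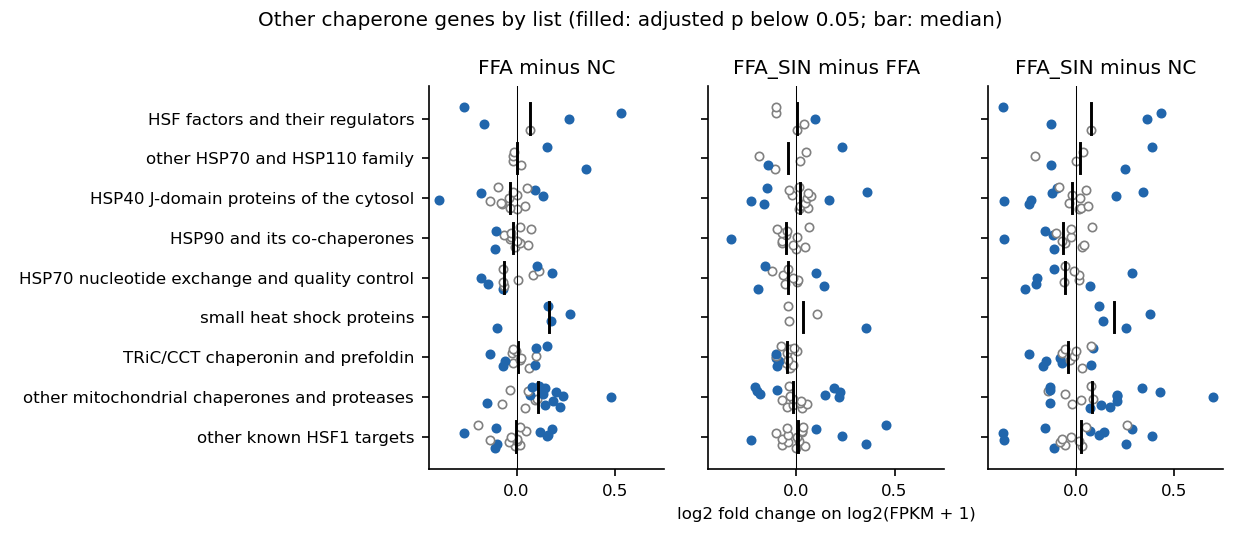
Log2 fold change on log2(FPKM + 1) of the tested genes of each chaperone list, 1 point per gene, in the 3 comparisons; filled points passed an adjusted p of 0.05 by limma and bars are list medians. The mitochondrial list has its points mostly above 0 in FFA against NC, with 11 rising and 1 falling, and the HSP90 co-chaperone list has no rising gene.

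The 7 expressed genes did not move as a block over the 9 libraries. As a description over libraries that share the group structure, Pearson's r of log2(FPKM + 1) was 0.73 between Hspa8 and Bag3, 0.70 between Hsph1 and Hspd1 and -0.90 between Hspa8 and Hsp90aa1. For the chaperonin pair Hspd1 and Hspe1 it was -0.11. Outside the set, among 7059 genes averaging 5 FPKM or more, the pattern most like that of Hspa8 was Chst13 (r = 0.99), followed by Bag1 (r = 0.98), and the most like Hsph1 was Crim1 (r = 0.99), which went from 24.0 through 16.5 to 20.1 FPKM. Hsp90aa1 was most like Eprs (r = 0.97), Hspd1 most like Resf1 (r = 0.98) and Bag3 most like Rnpepl1 (r = 0.96). Hspe1, with the smallest differences between groups, was most like Bola2, at r = 0.85.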

How the data were processed

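RNA from 9 AML12 libraries was extracted with the mirVana kit, kept at an RNA integrity number of at least 7 and made into TruSeq Stranded Total RNA libraries, per the labels' protocols. The submitters' processing notes name Trimmomatic, HISAT2 and GRCm39. The versions, counting tool, annotation, strand setting and treatment of reads matching several genes are not given in the sources available. The deposited table holds FPKM per gene as the authors computed it. Its unit is not named there and was inferred: values are whole multiples of a read's worth (tolerance 0.01), and the gene lengths implied equal those of GENCODE vM21 for all 10 genes described. Symbols came from that annotation of GRCm38, by identifier, for 28734 genes (94.7%).

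A gene was tested where its mean reached 1 FPKM. Its log2(FPKM + 1) values entered limma 3.58.1 (R 4.3.3; trended variance, a mean per group, 1 fit over all libraries). Fold changes on this scale understate changes of low genes. Two-sided p-values were adjusted (Benjamini-Hochberg) over all 11659 genes, separately in each of 3 comparisons, at a threshold of 0.05. The fit was also run on simulated data, with larger differences than those of the heat shock protein genes tested here. That run does not show how well differences of their size are found. The FPKM path of the plan was used, since the table holds no counts. Values from ratios were tested by exact permutation. Reads are those implied by the FPKM steps, and limits on them cover counting error only.

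The members and lists were chosen with earlier results of these data known, so counts over them are descriptions. Genes named from the other lists came mainly from the up to 3 per list and comparison with the smallest adjusted p. Not every such gene was named. Also named were Hsf1, Hsf2 and genes most like the members. Hsp90ab1 and Dnaja3 were added after their values were seen. No pair of libraries was identical, and within groups each pair differed by more than counting noise, at a chi-square of 4.63 to 7.90 per gene. Software was Python 3.11.15, numpy 2.4.6, pandas 2.3.3, scipy 1.17.1 and matplotlib 3.10.9.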

Additional observations from a re-analysis of the deposited data

How the results depend on the processing

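Alternatives were another pseudocount, no filter on low values, median-of-ratios scaling, a fit on the 6 libraries compared, a replicate block and leave-one-out fits. A further one, chosen after seeing the data, added the copies, which are genes sharing at least 5% of a member's 75-base windows. The falls of Hspd1 and Hsph1 in FFA against NC, the rises of Hsp90aa1 in both comparisons of FFA_SIN, and the falls of Hspa8 and Hspd1 in FFA_SIN against NC kept their calls in every one that was run. The count of changed genes among the 7 stayed at 2 in FFA against NC. It was 1 with no filter, where more genes are tested, in FFA_SIN against FFA, and ran from 1 (without FFA replicate 3) to 3 in leave-one-out fits. In FFA_SIN against NC it was 3 with no filter and ran from 3 to 5 in leave-one-out fits, with 3 without NC replicate 2, NC replicate 3, FFA_SIN replicate 1 or FFA_SIN replicate 2. With no filter the adjusted p by limma was 0.0790 for Hsph1 and 0.0584 for Hspa8 in FFA_SIN against FFA, and 0.0568 for Hsph1 and 0.0768 for Bag3 in FFA_SIN against NC. Hsph1 missed the threshold with 6 libraries in FFA_SIN against FFA (0.0633) and with median-of-ratios scaling in FFA_SIN against NC (0.0516). The cause was not tested. Log2 fold changes that changed sign were those of genes not past the threshold, all in leave-one-out fits: Hspe1 ran from -0.0414 to 0.0262, from -0.0058 to 0.0316 and from -0.0297 to 0.0379 in the 3 comparisons, and Hspd1 from -0.0297 to 0.0123 in FFA_SIN against FFA.

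Counts over all genes stayed within 1.5 times of the reported ones, at 3607 to 4368, 2968 to 3632 and 5334 to 6037. Replicate numbers were not treated as pairs in the main fit. Deviations of same-numbered libraries correlated at -0.0146 to 0.174, which cannot show whether the cultures were paired. With the replicate block 4338, 3607 and 6006 genes changed, and 2, 3 and 5 of the 7 described. The sum of Hspa1a and Hspa1b stayed below the filter of 1 FPKM, so adding them gave no tested value. Hspa1a, Hspa1b and Hspb1 had at most 30 reads in a library, which limits any comparison of them.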
